A study of Rattus norvegicus with 38 samples.

Results

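The kidney response to anti-Fx1A given together with L-NAME was followed as the difference between 10 treated rats and 8 vehicle rats, which are 18 of the 38 animals of the series. The animals were taken by their sample titles. The combination group received anti-Fx1A at 2.0 mL/kg and L-NAME at 20 mg/kg per day over 7 weeks, and the vehicle group received vehicle alone. The 2 other groups, 10 rats each, received anti-Fx1A alone at the higher dose of 2.5 mL/kg or L-NAME alone at 20 mg/kg per day, and they are used below only to place the combination. No strain, sex or age was given in the sources used here. RNA of kidney was profiled by sequencing of the 3' ends of transcripts. Animals keep the numbers of their titles, which run in the order of the groups (vehicle 1 to 8, combination 29 to 38), and treatment and processing order cannot be told apart.

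Anti-Fx1A is an antiserum to brush border antigens of rat proximal tubules. In rats it induces Heymann nephritis, in which antibody binds antigens such as megalin on podocytes and tubule cells, complement is activated and protein leaks into the urine. L-NAME blocks the nitric oxide synthases. Nitric oxide relaxes renal vessels, so that its loss raises blood pressure and constricts the vessels that supply glomeruli and tubules. By these actions the combination would join an immune injury to the filter and the brush border with a vascular one. Neither injury was measured in the data used here.

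The table names genes by Ensembl identifiers, and 0 of its 30207 identifiers could be paired with a gene name in the tables used here. The changes are therefore described by their number, size, direction and spread over animals, and by 4 genes under their identifiers, without roles. The labelled tissue could not be checked against kidney marker genes for the same reason. In bulk RNA, fewer cells of a type and less RNA per cell cannot be told apart.

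Before the comparison, vehicle animal 1 stood apart from the other vehicles. Its mean distance to the other animals of its group was 0.560 log2 units (root mean square over the genes tested), where the other 7 vehicles lay between 0.332 and 0.385. In the 10 combination animals the same distance ran from 0.363 to 0.454, with a median of 0.388. Vehicle animal 1 was the highest vehicle for 35.4% of the genes that were higher in the combination, and the lowest for 37.4% of those that were lower, against 28.9% and 25.7% over all genes tested. Depth was 5262515 to 7023819 reads with the combination and 4120902 to 7728847 with vehicle (means 6236273 and 5736477, adjusted exact permutation p = 0.255, two-sided, over 5 measures of libraries).

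The combination changed a large part of the kidney transcripts that could be tested, in both directions. Of 12599 genes, 4507 were called, or 35.8%, of which 2320 were higher (18.4% of the genes tested) and 2187 lower (17.4%) (limma, adjusted p under 0.05). At an unadjusted p under 0.05 the count was 5779 (45.9%), and with a change of at least 1.5-fold required in addition it was 1373 (10.9%, 761 higher and 612 lower). On the deposited log2 scale the middle 50% of the higher genes rose by 0.34 to 0.65, and those of the lower genes fell by 0.32 to 0.61. A change below 0.25 log2 units was called for 140 higher and 163 lower genes, one from 0.25 to 0.5 for 1145 and 1176, one from 0.5 to 1 for 905 and 728, and one of at least 1 for 130 and 120. The median over all genes tested was -0.013 on this scale, on which the authors had scaled the libraries for depth. Without vehicle animal 1 the calls numbered 2461 higher and 2446 lower.

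The deposited scale is compressed at low counts and shows smaller changes than the reads themselves. On reads recovered from the table and fitted with voom, the genes called higher on the deposited scale had a median log2 difference of 0.74 in place of 0.46, and the lower ones -0.52 in place of -0.43. On the reads, 67.3% of genes that rose and 43.5% of those that fell differed by at least 1.5-fold, against 32.8% and 27.98% on the deposited scale. The balance of directions also moved. The voom fit scaled each library by its total reads in the genes tested, while the deposited values carry the authors' scaling. The shift in balance therefore cannot be assigned to the compression alone. With voom 2373 genes were called higher and 1434 lower, so that 62.3% of calls were higher, against 51.5% on the deposited scale. With libraries centred on their medians the calls were 2523 higher and 1975 lower. Of the genes called on the deposited scale, voom called 2197 of the 2320 higher and 1432 of the 2187 lower in the same direction. The median over all genes was 0.039 with voom.

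**Figure D1:**
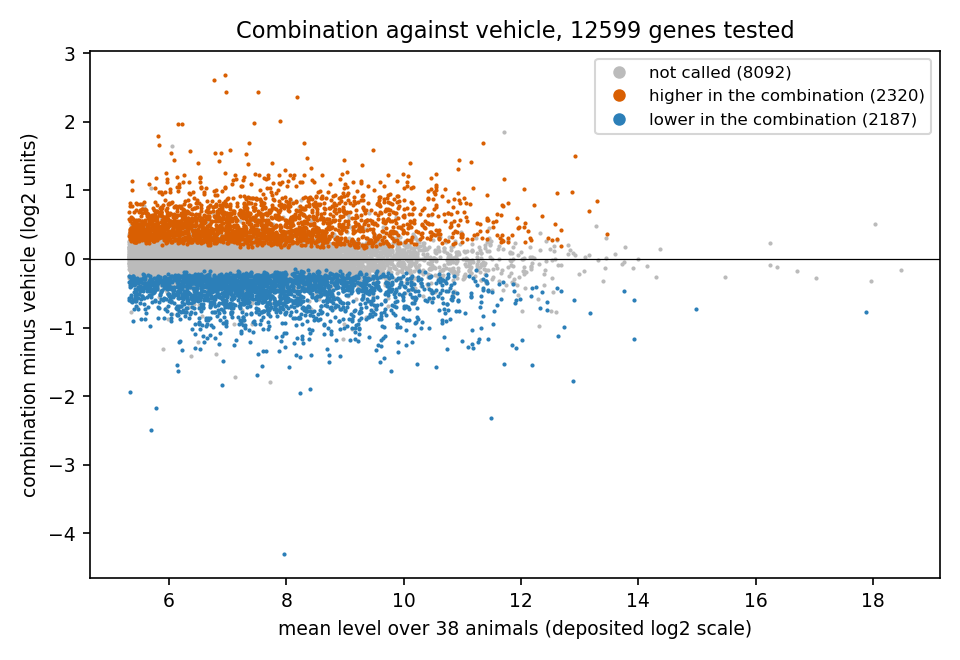
Difference between the combination and vehicle (vertical axis, log2 units) against mean level over the 38 animals (horizontal axis, deposited log2 scale). Each point is a gene tested; coloured points passed limma's adjusted p under 0.05, with 2320 higher and 2187 lower, spread over all levels.

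Genes at every level of abundance took part, and abundant genes were called most often. The genes tested were divided into 10 bins of equal size by their mean level over all 38 animals. In the highest bin, with a median of 1121 reads in vehicle, 23.8% of genes were higher and 23.3% lower with the combination. In the lowest bin, with a median of 12 reads, 16.3% were higher and 8.49% lower. Rises outnumbered falls in the lowest 3 bins, with 654 against 394 genes. In each of bins 4 to 9 falls were the more frequent, with 1500 against 1366 genes over the 6 bins. With voom, rises outnumbered falls in each of the 10 bins, with 15.2% and 5.63% in the lowest bin and 26.7% and 16.7% in the highest. In the lowest 3 bins rises were thus in excess on both scales, but with voom this was not particular to scarce transcripts. The excess of falls in bins 4 to 9 was found on the deposited scale alone. Few reads limit what can be called in the lowest bins.

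**Figure D2:**
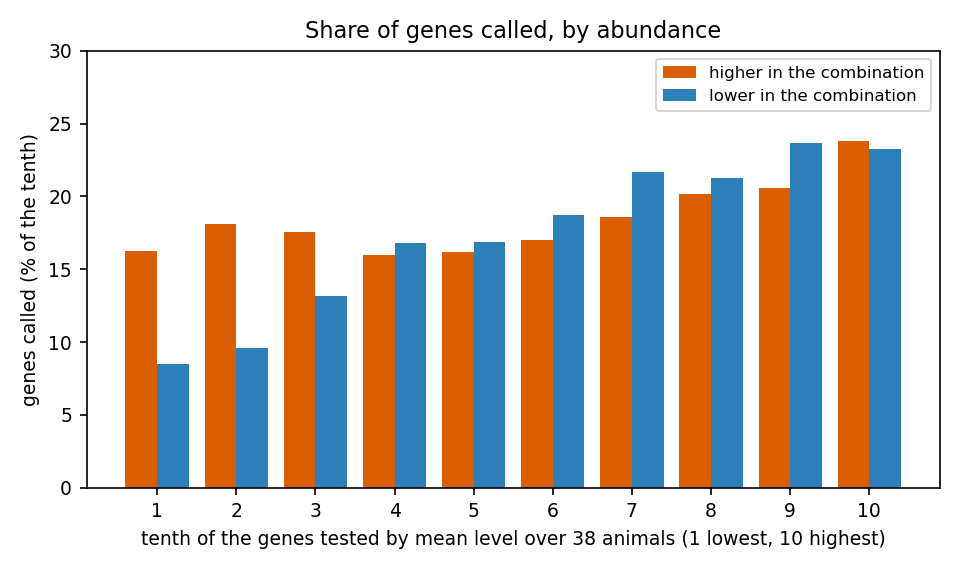
Share of genes called higher or lower in the combination than in vehicle (vertical axis, % of the genes of a bin), in 10 bins of mean level over 38 animals (horizontal axis, 1 lowest). The share called higher goes from 16.3% in the lowest bin to 23.8% in the highest, and the share called lower from 8.49% to 23.3%.

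The most abundant transcripts were called about as often as all genes. Among the 100 genes of highest mean level, 17 were higher, 20 lower and 63 not called, where 35.8% of all genes tested were called. These 100 genes took 41.8 ± 4.72% of the reads with the combination (SD, n = 10) and 43.7 ± 1.504% with vehicle (SD, n = 8). The 10 genes with most reads in a library took 21.1% to 37.5% of them in combination animals and 28.1% to 32.99% in vehicle animals (means 28.8% and 30.4%, adjusted exact permutation p = 0.424, two-sided). The lowest combination share belonged to animal 35 and the highest to animal 38, and 6 combination animals lay below the vehicle range and 2 above it.

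The called genes also account for a sizeable part of the RNA. Genes called higher took 11.1 ± 0.744% of the reads with vehicle (SD, n = 8, range 10.1% to 12.2%) and 17.9 ± 2.30% with the combination (SD, n = 10, range 14.2% to 21.9%). Genes called lower took 24.8 ± 1.48% with vehicle (range 22.5% to 26.9%) and 16.3 ± 1.405% with the combination (range 14.5% to 19.4%). These genes were chosen by their difference between the same animals, so the separation is a description and is not tested.

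More genes were detected in the kidneys given the combination than with vehicle, although at equal depth the difference did not pass without vehicle animal 1. Genes with at least 1 read numbered 16966 ± 265 with the combination (SD, n = 10) and 16550 ± 183 with vehicle (SD, n = 8), a difference of 416 (adjusted exact permutation p = 0.0121, two-sided). The highest vehicle was exceeded by 6 of the 10 treated animals. With every library thinned to 4120902 reads, the depth of the shallowest, the means were 16495 ± 273 (SD, n = 10) and 16203 ± 116 (SD, n = 8), with 7 combination animals above the highest vehicle (adjusted exact permutation p = 0.0338). Genes with at least 10 reads at this depth numbered 12078 ± 267 and 11821 ± 119 (adjusted exact permutation p = 0.0378), and 6 treated animals exceeded every vehicle. Without vehicle animal 1 the differences at equal depth were 260 genes at 1 read and 256 at 10 reads, and neither passed (adjusted exact permutation p = 0.0557 for both; unadjusted 0.0291 and 0.0334). With vehicle animal 1 the differences at equal depth were 292 and 257 genes. No other vehicle was left out for these measures. At full depth the difference without vehicle animal 1 was 383 genes (adjusted exact permutation p = 0.0283). The higher counts were not particular to the combination. At equal depth L-NAME alone had 16553 ± 241 genes at 1 read and 12103 ± 218 at 10 reads (SD, n = 10). With anti-Fx1A alone they were 16412 ± 379 and 11977 ± 356 (SD, n = 10). The single treatments were not tested for this measure. The 10 leading genes of a library took 28.8% of reads on average with the combination and 30.4% with vehicle, and the part of this share in the counts was not tested.

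No gene was switched on or off in all animals at this depth. Of the 30207 genes, 0 were read in all 10 combination animals and in none of the vehicles, and 0 were read in all vehicles and in no combination animal. With 8 of 10 combination animals required, 2 genes had reads in the combination and 0 in every vehicle, at a median of at most 1.5 reads, which is below the 3 reads that a count of 0 allows. A further group of genes was read in some animals and not in others of the same group. At least 100 reads in some animals and 0 in others were found for 22 genes in the combination group and 28 in the vehicle group, 12 of them in both. Of the 22 genes, 19 passed the filter on low values and 6 were called, or near the background of 35.8%.

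The number of combination animals outside the vehicle range varied between called genes, with a median of 7 for higher and 6 for lower genes. Few genes separated the groups completely. Of the genes called higher, 401 had all 10 combination animals above the highest vehicle, or 3.18% of the genes tested, and of those called lower 253 had all 10 below the lowest, or 2.01%. Together these were 654 genes, or 5.19%. At least 8 of 10 animals lay outside the vehicle range for 45.0% of genes that rose and 31.8% of those that fell. For 633 higher and 997 lower genes (27.3% and 45.6% of those called), 5 or fewer animals did. Leaving any vehicle out can only narrow the range, so that complete separations cannot become fewer. The counts were repeated without vehicle animal 1 alone, and other vehicles were not left out for comparison. Without vehicle animal 1 in the range, 631 of the 2320 genes called higher and 510 of the 2187 called lower separated completely. Then 366 and 483 of these called genes had 5 or fewer animals outside. The calls were those made with all 8 vehicles, and genes not called were not counted.

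**Figure D3:**
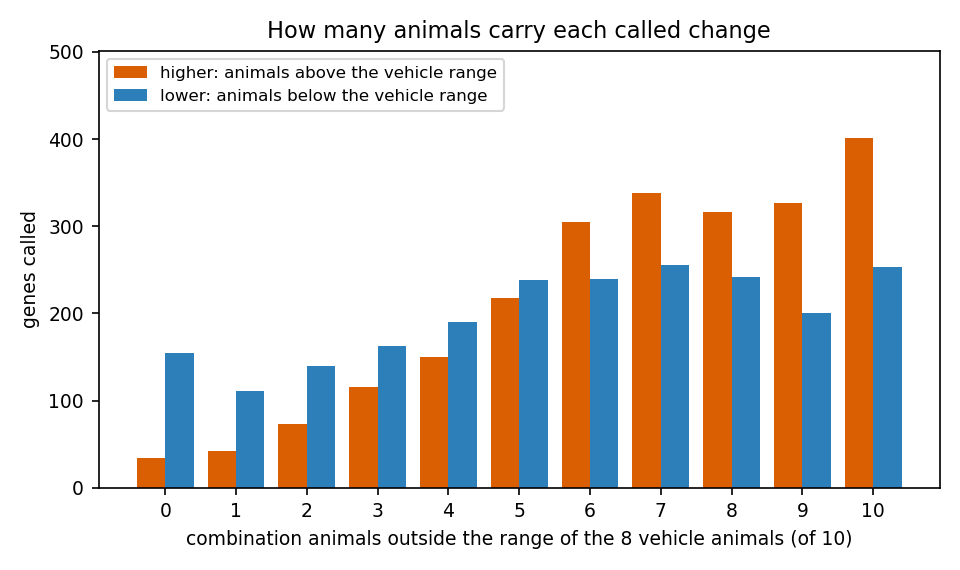
Number of genes called (vertical axis) by how many of the 10 combination animals lay outside the range of the 8 vehicle animals on the side of the change (horizontal axis). All 10 lay outside for 401 higher and 253 lower genes, and none for 34 and 155.

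Within each group, animals varied in how far they lay from the vehicle mean toward the combination mean. Each animal was placed on the line from the vehicle mean (0) to the combination mean (1) over all genes tested, with its own values left out of both means. The positions of the combination animals were 0.642 for animal 38, 0.708 for 36, 0.791 for 30, 0.818 for 33, 0.929 for 37, 0.965 for 32, 0.993 for 34, 1.15 for 31, 1.22 for 29 and 1.28 for 35. All 10 lay above the highest vehicle. Vehicle animal 1 stood at 0.533, and the other 7 vehicles lay between -0.139 and 0.143. With animal 1 included, the SD of positions was 0.212 with vehicle (n = 8) and 0.215 with the combination (n = 10). Whether the response differed in strength between animals was not tested. Animals 29 and 35, which were farthest along the line, also lay farthest from the rest of their group (distances of 0.454 and 0.437 log2 units).

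Within the combination group, 33.5% of the variance lay along a leading component, and its cosine to the line between the groups was 0.435 in absolute value. Animals 29 and 35 had the highest scores on it. The position on the line tended to be lower in animals whose 10 leading genes took more reads (Pearson r = -0.593, permutation p = 0.0718; Spearman rho = -0.552, permutation p = 0.106; n = 10; r = -0.462 without animals 37 and 38). It was also lower in deeper libraries (r = -0.554, permutation p = 0.0950; rho = -0.661, permutation p = 0.0433; r = -0.555 without animals 34 and 38). For genes detected at equal depth r was 0.377 and rho 0.285 (permutation p = 0.282 and 0.426; r = 0.116 without animals 37 and 38). Over these 3 relations no adjusted permutation p passed, the lowest being 0.142 for r and 0.130 for rho.

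The comparison of spread between animals depended on vehicle animal 1. With it, the median SD of a gene was 0.22 log2 units with vehicle and 0.22 with the combination, and 48.4% of genes had the larger SD in the combination. Among the genes called the medians were 0.22 and 0.23. The mean distance to the other animals of the group was 0.392 with the combination and 0.388 with vehicle. Without vehicle animal 1 the median SD with vehicle was 0.19, 63.3% of genes had the larger SD in the combination, and the mean distance between vehicles was 0.330. The combination animals then lay 0.0621 log2 units farther from each other than the vehicles did, against 0.00461 with it. Leaving out the vehicle farthest from its group lowers the vehicle spread by that choice, and no combination animal was left out. These spreads are a description, without a test.

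The means of the single treatments lay between those of vehicle and combination on the same line, which was drawn without these animals, while single animals overlapped both groups. With anti-Fx1A alone positions ran from 0.0151 to 0.754 (median 0.347, n = 10), and 2 of 10 lay above the highest vehicle, animal 1. With L-NAME alone they ran from 0.251 to 1.38 (median 0.539, n = 10). Of these animals, 5 lay above both the highest vehicle and the lowest combination animal, and animal 25 lay beyond every combination animal. With vehicle animal 1 set aside, 7 of 10 animals given anti-Fx1A and all 10 given L-NAME lay above the highest of the other 7 vehicles, also when the line was redrawn without it. Setting aside the highest vehicle could only raise these counts on the original line. On the redrawn line 1 animal given anti-Fx1A and 5 given L-NAME still reached the lowest combination animal. The mean was 0.598 with L-NAME and 0.335 with anti-Fx1A, a difference of 0.263 that did not pass (permutation test with 100000 resamples, two-sided, p = 0.0696). Without vehicle 1, anti-Fx1A 10 and L-NAME 25, the libraries of lowest weight, it was 0.206 (permutation p = 0.0822). For 81.7% of the genes higher in the combination the L-NAME mean exceeded the anti-Fx1A mean, against 47.8% of all genes tested, and for 88.2% of the lower genes it was below, against 52.2%. The median log2 difference between L-NAME and anti-Fx1A was 0.11 for the higher, -0.13 for the lower and -0.01 for all genes. Since genes vary together, these shares are no test.

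**Figure D4:**
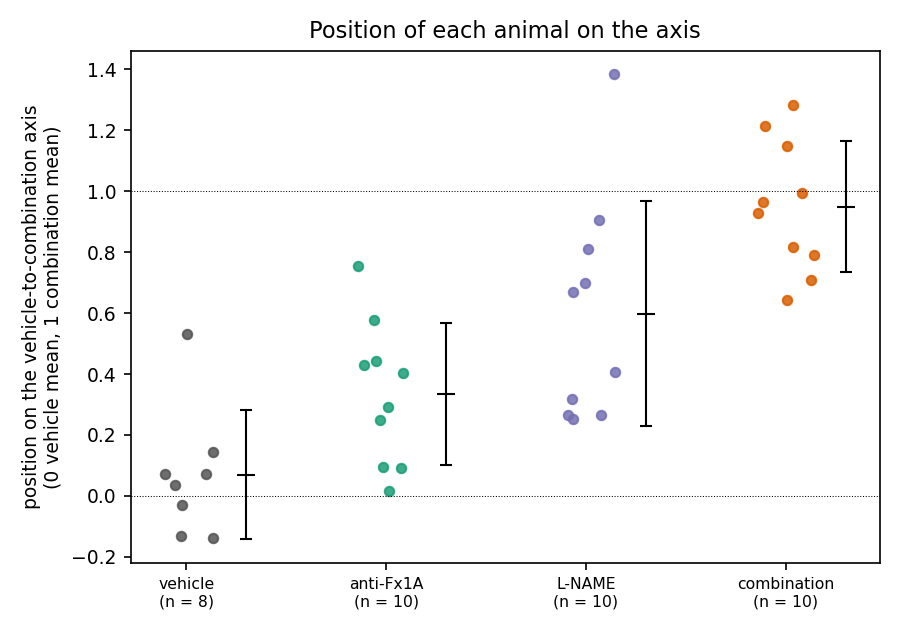
Position of each animal on the line from the vehicle mean (0) to the combination mean (1), by group. Points are animals, bars the mean ± SD; combination animals lie between 0.642 and 1.28, and vehicles between -0.139 and 0.533.

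In direct comparisons with the combination, more genes were called against anti-Fx1A alone than against L-NAME alone, and the difference between these counts was not tested. Against anti-Fx1A alone 2428 genes were called, or 19.3%, and against L-NAME alone 151, or 1.2% (limma, adjusted p under 0.05). Both comparisons use the same combination animals, and the comparison with anti-Fx1A alone also holds the difference in its dose, 2.0 against 2.5 mL/kg. The count against L-NAME depended on single animals. It was 640 without L-NAME animal 25, 235 without L-NAME animal 26 and 233 without combination animal 36. It fell below 100 without L-NAME animals 19 (67), 21 (62), 22 (47) or 24 (73) and without combination animals 31 (78), 34 (77), 35 (88) or 37 (89).

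The genes named here had the largest rises and falls among called genes for which at least 8 of 10 combination animals lay outside the vehicle range, 2 in each direction. They were chosen for this difference, which inflates it. The comparisons with the single treatments use the same combination animals, so the choice favours a difference there too. Their p-values for these genes are therefore no independent test.

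ENSRNOG00000020039 rose most. Its level on the deposited log2 scale was 4.80 at the lowest, 5.44 at the median and 6.26 at the highest with vehicle (n = 8), and 6.33, 8.17 and 9.14 with the combination (n = 10). Every combination animal lay above every vehicle, though animal 32, the lowest, stood just above. The log2 difference was 2.61 (SE 0.33, limma adjusted p = 4.53e-07). The median number of reads per 1000000 was 2.14 in vehicle animals, 6.30 under anti-Fx1A, 12.4 under L-NAME and 43.9 under both. By these medians the combination stood 20.5-fold above vehicle. This ratio rests on 2 to 38 reads per vehicle animal (median 13.5), and the deposited log2 scale is compressed at low counts. Against L-NAME alone it was higher by 1.396 (limma adjusted p = 0.0183). Every L-NAME animal was exceeded by 8 of the 10 animals given both, and every anti-Fx1A animal by 5 of the 10.

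ENSRNOG00000028008 followed the same order of groups. Its level was 5.07, 5.75 and 6.48 with vehicle (lowest, median and highest, n = 8) and 7.21, 8.19 and 8.91 with the combination (n = 10). The groups did not overlap, and animals 32 and 34 were again the lowest and the highest of the combination. The log2 difference was 2.44 (SE 0.26, limma adjusted p = 4.78e-08). Median reads per 1000000 were 3.63 in vehicle animals, 9.14 under anti-Fx1A, 18.4 under L-NAME and 42.7 under both. It exceeded L-NAME alone by 1.06 (SE 0.24, limma adjusted p = 0.0201) and anti-Fx1A alone by 1.62 (SE 0.24, limma adjusted p = 7.01e-05). Of the 10 combination animals, 6 lay above every L-NAME animal and 9 above every anti-Fx1A animal.

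ENSRNOG00000024903, an abundant transcript, fell most. Its level was 12.17, 12.51 and 13.23 with vehicle (lowest, median and highest, n = 8) and 8.14, 10.4 and 11.6 with the combination (n = 10). All combination animals lay below all vehicles, and they were more widely spread, with an SD of 1.13 against 0.36. The lowest was animal 29 and the highest animal 38, which also held the lowest position on the line between the groups. The log2 difference was -2.32 (SE 0.45, limma adjusted p = 0.00017). Reads ran from 4380 to 8509 with vehicle and from 277 to 3158 with the combination. The log2 difference from anti-Fx1A alone was -1.71 (limma adjusted p = 0.00667), and the -1.14 against L-NAME alone did not pass (limma adjusted p = 0.182). Of the 10 combination animals, 2 lay below every L-NAME animal and 2 below every anti-Fx1A animal.

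ENSRNOG00000027739 fell with less spread among the combination animals than the other genes named here. Its SD of 0.36 was still above the median SD of a gene with the combination, 0.22 log2 units. Its level was 8.18, 9.48 and 9.79 with vehicle (lowest, median and highest, n = 8) and 6.65, 7.39 and 8.03 with the combination (n = 10, SD 0.36). The groups did not overlap, although vehicle animal 1, the lowest vehicle, came close to the highest combination animal. The log2 difference was -1.90 (SE 0.32, limma adjusted p = 2.2e-05). Median reads per 1000000 were 109 in vehicle animals, 68.5 under anti-Fx1A, 54.4 under L-NAME and 23.1 under both. The difference of -0.73 from L-NAME alone did not pass (limma adjusted p = 0.222), while -1.45 from anti-Fx1A alone did (limma adjusted p = 0.00159). No combination animal lay below every L-NAME animal, and 9 lay below every anti-Fx1A animal.

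**Figure D5:**
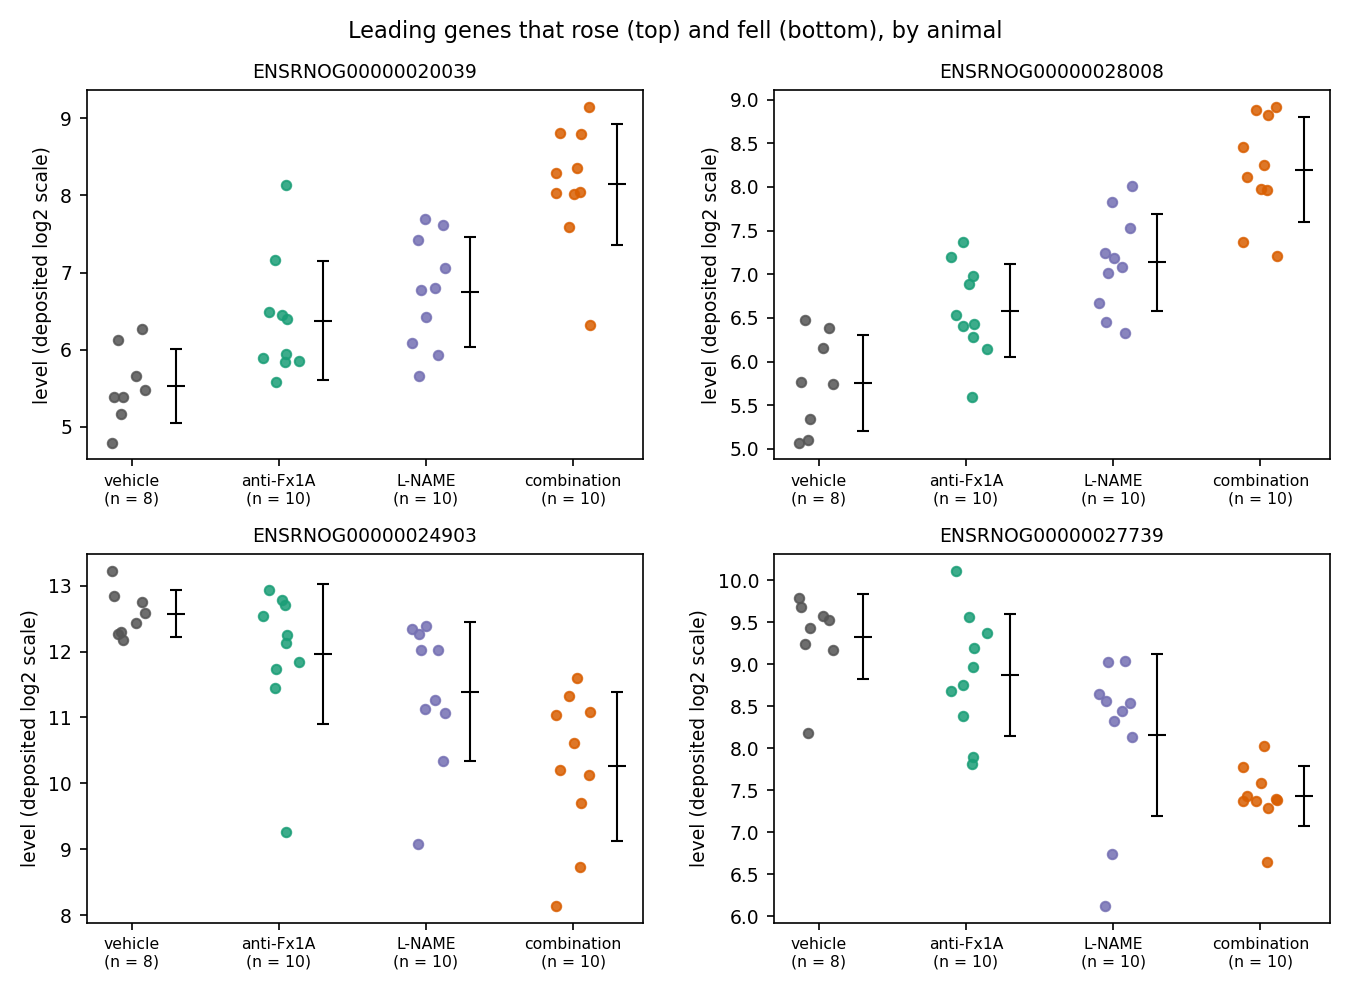
Level of the 4 genes in each animal (vertical axes, deposited log2 scale), by group, with the mean ± SD beside the points. For each gene the group means run in the order vehicle, anti-Fx1A, L-NAME, combination, and no combination animal overlaps the vehicle range. The genes were chosen for the difference between combination and vehicle.

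Against vehicle, the single treatments gave smaller differences for these genes in limma's fit of the same table, and they share the vehicle animals with the combination. The genes were chosen for their difference in the combination, which favours smaller differences with the single treatments, so this order is a description. For ENSRNOG00000020039 the log2 difference from vehicle was 1.21 with L-NAME (adjusted p = 0.0104) and 0.84 with anti-Fx1A (0.194). For ENSRNOG00000028008 it was 1.38 with L-NAME (adjusted p = 0.00036) and 0.83 with anti-Fx1A (0.0935). For ENSRNOG00000024903 it was -1.18 with L-NAME (adjusted p = 0.0771) and -0.61 with anti-Fx1A (0.588). For ENSRNOG00000027739 it was -1.17 with L-NAME (adjusted p = 0.0107) and -0.45 with anti-Fx1A (0.560).

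Across the 10 combination animals no pair of the 4 genes passed a test of correlation. Of 6 pairs, the falling genes had the highest correlation (Pearson r = 0.669, permutation p = 0.0345, adjusted 0.207; Spearman rho = 0.564, permutation p = 0.0962, adjusted 0.463; r = 0.635 without animals 29 and 35). The rising genes gave r = 0.568 (permutation p = 0.0835, adjusted 0.251; rho = 0.418, permutation p = 0.232, adjusted 0.463), which rested on animals 32 and 34, since r was -0.0934 without them. The 4 pairs of a rising with a falling gene had r between -0.328 and 0.294, with adjusted permutation p of 0.613 or more.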

How the data were processed

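Kidney RNA of 38 rats was sequenced from 500 ng of total RNA with the QuantSeq 3' kit, per the labels' protocols. Salmon 1.4.0, edgeR 3.40.2 and DESeq2 are named, without role or order, per the submitters' processing notes. The sources used here name neither genome build nor annotation. Values in the deposited table are on a log2 scale and were made by the authors with a variance-stabilising transformation after scaling for depth, as its name and values show. It covers 30207 genes in 38 columns, and 2 rows that name no gene were left out. The value 4.31634 stands for 0 reads. Inverting the stabilising curve gave whole reads for 100% of values of up to 10000 reads in each library (within 0.05 of a whole read). Depth is the sum of these reads. No molecular identifiers were used, so limits cover counting error only.

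Genes with a mean of at least 5.32 over all animals (12599, with 99.43% or more of each library's reads) were fitted with limma 3.58.1 in R 4.3.3, with 1 mean per group, a trend and robust estimation, and Benjamini-Hochberg adjustment over all genes. The fit was tested on simulated data. Measures of animals were compared by permutation tests in numpy 2.4.6. The labels number each library as its own sample and say nothing more of the animals, so p-values measure the spread between these samples.

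The comparison, gene lists and tests were chosen with earlier results of these data known. The lists and the rule for named genes needed symbols. With 0 identifiers paired, the lists were not run, and the rule was applied to identifiers, with 2 genes in each direction, after the data were seen. No sequence is printed for the same reason.

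Alternatives were libraries centred on their medians, quantile normalisation, fits with no low-value filter, a filter at 2 log2 units, no trend or robust estimation, only the groups compared, array weights, voom, a threshold of 1.5-fold, and each animal left out. Added after the data were seen were the share of the 10 leading genes as a covariate, leaving out the 3 libraries of lowest weight, thinning, and leaving out vehicle 1.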

Additional observations from a re-analysis of the deposited data

Results flagged for a closer look

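In groups of 8 to 10 animals, a sample whose gap to its neighbour takes up more of the group's range than Dixon's 95% value allows (0.526 for 8 animals, 0.466 for 10) was looked at again. Chance gives about 1 in 20 groups, and 4 of 32 checks met it. Of the 4, 3 concern vehicle animal 1. Its mean distance to its group was 0.560 log2 units, against 0.385 for the next vehicle. Its position on the line from vehicle to combination was 0.533, against 0.143 for the next. Its level of ENSRNOG00000027739 was 8.18, against 9.16 for the next lowest vehicle. The fourth was anti-Fx1A animal 10, whose level of ENSRNOG00000024903 was 9.26, against 11.5 for the next lowest animal given anti-Fx1A.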

How the results depend on the processing

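Of the 4507 genes called between combination and vehicle, 3438 (76.3%) were called in the same direction in each of the 18 fits without an animal, and 3165 of them also in 9 other fits. No gene was called in the opposite direction in any fit. Calls numbered 4068 to 4907 without an animal (2132 to 2461 higher, 1932 to 2446 lower). The additional threshold of 1.5-fold left 1373 (761 higher, 612 lower), and voom called 1434 lower genes. Against L-NAME the calls ran from 47 to 640 without an animal, and were 95 without the filter on low values, 990 with array weights, 338 with the share of the 10 leading genes as a covariate and 1155 without the 3 libraries of lowest weight; the cause was not tested. Against anti-Fx1A they ran from 1668 to 2816 without an animal, and 3492 without the 3 libraries. The 4 named genes passed in all 28 fits against vehicle. The position of L-NAME minus anti-Fx1A animals was 0.206 to 0.263 over 4 alternatives and did not pass in any. Without vehicle animal 1 the differences in genes detected at equal depth lost their call, and no other vehicle was left out for them. No paired analysis was possible because the groups share no replicate numbers. The gene lists and the relations of Havcr1 that had been planned were not run. Few reads limit calls among scarce genes.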
